A study of Homo sapiens with 9 samples.

Results

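The genes examined were those of the S100 family and of the epidermal differentiation complex, measured by RNA sequencing in HCT116, an established line of human colorectal carcinoma cells. They were chosen by gene name: every row of the count table named as an S100, SPRR (small proline-rich protein) or LCE (late cornified envelope) gene, or as FLG, FLG2, HRNR, RPTN, TCHH, TCHHL1, CRNN, IVL, LOR, SMCP or LELP1. This gave 27 genes of the 35817 in the table. All HCT116 cultures were grown alike and transfected with LINC00857-siRNA1 (siRNA1), LINC00857-siRNA2 (siRNA2) or a negative control siRNA (NC), with 3 libraries per group. The 2 specific siRNAs target LINC00857, a long non-coding RNA, and all values come from this 1 cell line after a transient knockdown. Nothing in the labels or methods tells whether the replicates were separate cultures. The p-values therefore cover only the scatter among these libraries, and that scatter may be technical.

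S100 proteins are small calcium-binding proteins with a pair of EF-hands that dimerize and bind partner proteins, and several are abundant in epithelial tumour cells. Most of their genes lie in a cluster on chromosome 1q21.3 at the ends of the epidermal differentiation complex. The middle of this complex codes for proteins that keratinocytes make late in differentiation and cross-link into the cornified envelope of the skin. They include the small SPRR and LCE proteins and the S100-fused type proteins, which carry an S100-like calcium-binding start followed by long repeats. Colon epithelium does not cornify.

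Of the 27 genes, 15 code for S100 proteins, 6 for S100-fused type proteins (TCHH, RPTN, HRNR, FLG, FLG2 and CRNN) and 5 for cornified envelope precursors (LCE1B, LCE1C, LCE1E, LCE1F and SPRR2D). The last, S100PBP, fits the name rule but codes for a protein that binds S100P and is not an S100 protein itself. The reference annotation (GENCODE v29) lists 61 genes under the name rule, of which 34 have no row in the count table used here and were not analysed. These include S100A7, S100A8, S100A9 and S100A12, IVL (involucrin), LOR (loricrin), 10 of the 11 SPRR genes and 14 of the 18 LCE genes. No row of the table had a total of 0. In that annotation 22 of the 27 genes lie within 1.65 Mb of chromosome 1 (GRCh38, chr1:151982915-153632039, S100A10 to S100A1), while S100PBP lies elsewhere on chromosome 1 and S100B, S100P, S100Z and S100G lie on chromosomes 21, 4, 5 and X.

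Promoter windows of 4 members on which the results turn are shown first: HRNR and FLG, which rose with both siRNAs, S100A6, the member with the highest level, which rose with siRNA2, and S100A4, which fell with both. Each window runs from 250 bases before to 50 bases after the start of the RefSeq gene (GRCh38.p14), all on the minus strand, and is written in the sense of the gene. Capitals mark TATAAA, the TATA box, and TGANTCA, a loose form of the site bound by AP-1 (Fos and Jun factors). This loose form allows any base in its middle, so a match need not be an AP-1 site. The windows lie at chr1:152224144-152224443 for HRNR, chr1:152325190-152325489 for FLG, chr1:153535942-153536241 for S100A6 and chr1:153545757-153546056 for S100A4.
HRNR: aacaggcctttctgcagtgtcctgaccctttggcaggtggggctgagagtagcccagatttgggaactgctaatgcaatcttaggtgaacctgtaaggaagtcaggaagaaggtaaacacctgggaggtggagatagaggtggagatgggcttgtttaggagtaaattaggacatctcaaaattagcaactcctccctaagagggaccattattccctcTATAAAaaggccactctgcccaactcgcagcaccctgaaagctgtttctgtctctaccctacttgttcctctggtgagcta
FLG: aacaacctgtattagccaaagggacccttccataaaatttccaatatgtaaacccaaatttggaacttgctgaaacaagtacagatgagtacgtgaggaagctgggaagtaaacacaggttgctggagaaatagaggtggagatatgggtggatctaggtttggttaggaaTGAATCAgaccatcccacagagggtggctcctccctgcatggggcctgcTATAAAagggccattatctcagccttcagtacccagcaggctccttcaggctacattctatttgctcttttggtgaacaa
S100A6: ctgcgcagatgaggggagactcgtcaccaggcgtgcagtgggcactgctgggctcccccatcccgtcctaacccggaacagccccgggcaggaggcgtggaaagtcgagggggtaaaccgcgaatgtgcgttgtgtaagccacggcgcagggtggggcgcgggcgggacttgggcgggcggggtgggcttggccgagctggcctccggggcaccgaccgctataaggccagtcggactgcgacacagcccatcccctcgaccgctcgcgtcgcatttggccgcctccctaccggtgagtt
S100A4: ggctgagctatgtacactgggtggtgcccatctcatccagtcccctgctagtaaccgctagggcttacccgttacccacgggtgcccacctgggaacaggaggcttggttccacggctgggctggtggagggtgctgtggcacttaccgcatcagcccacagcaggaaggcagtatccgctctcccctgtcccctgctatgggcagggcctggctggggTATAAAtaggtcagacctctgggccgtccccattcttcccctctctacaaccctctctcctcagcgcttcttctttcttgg

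HRNR, FLG and S100A4 each carried a TATAAA whose first base lay 31, 30 and 31 bases before the start, and FLG also carried TGAATCA, whose first base lay 79 bases before it. The S100A6 window held neither motif in these exact letters, though it held TATAAG, which differs from TATAAA in its last base. RefSeq windows were found for 24 of the 27 genes, 31 windows in all. Searched on both strands, TATAAA was present in 11 of these 31 windows and in 11.5% of all 35116 RefSeq windows, and TGANTCA in 9 of 31 and in 7.71% of all. TGACNNNGC, the core of the antioxidant response element bound by NRF2, was present in 4 of 31 and in 13.3% of all, and AACCGGTT, the site of grainyhead factors, in 0 of 31 and in 0.134% of all. The same bases can match both TGACNNNGC and TGANTCA. Over the S100-fused type genes TATAAA was found in TCHH, RPTN, HRNR, FLG and CRNN, and TGANTCA in TCHH, RPTN, FLG, FLG2 and CRNN. Aligned end to end, the windows of HRNR and FLG were identical at 57.9% of the aligned columns, and those of HRNR and TCHH at 57.8%. Over the 15 pairs of S100-fused type genes the share was 43.4% to 57.9%, over the 12 pairs of such a gene with S100A6 or S100A4 it was 42.6% to 47.5%, and for S100A6 and S100A4 it was 47.4%. The longest run of bases shared by FLG and TCHH was 19 bases. These matches describe the letters of the windows, and no binding was measured.

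Library totals were 51411860 to 57815092 counts. LINC00857 itself fell with both siRNAs, with counts of 213, 235 and 207 with siRNA1, of 182, 163 and 239 with siRNA2 and of 522, 416 and 511 with NC (log2 fold change -1.18, adjusted p = 0.000292, and -1.27, adjusted p = 0.000109). Epithelial markers were at 3744 to 4234 CPM (counts scaled to a library total of 1000000) in sum with siRNA1, 3913 to 4052 with siRNA2 and 3730 to 3923 with NC, with KRT8 the largest single part and CEACAM5 and VIL1 of the 9 markers under 1 CPM in every library. Single markers differed within this sum. CDH1 (E-cadherin) was at 62.5 to 67.3 CPM with siRNA1, 20.7 to 24.5 with siRNA2 and 50.5 to 55.4 with NC, and EPCAM was at 190.2 to 199.8 with siRNA1, 104.4 to 107.3 with siRNA2 and 134.9 to 147.0 with NC, with no overlap between groups for either. One library stood apart: between replicates the chi-square per gene was 16.0 and 17.4 for siRNA1 replicate 1 against replicates 2 and 3, and 9.70 to 11.4 for the other pairs of any group. Results that turn on it are given with and without it.

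Of the 27 genes, 17 had enough counts to be tested, and 14 of these averaged 50 normalized counts or more (scaled by TMM, the trimmed mean of M values). Changes were tested for each siRNA against NC and between the siRNAs by the quasi-likelihood F test of edgeR, with p-values adjusted over the whole table of 21130 tested genes and called under 0.05. With siRNA1, 3 of the 17 members were higher and 6 lower than with NC, and 8 did not pass the test. Over all genes tested, 10.8% were called as higher and 10.5% as lower in that comparison. With siRNA2, 7 members were higher and 3 lower than with NC, and 7 did not pass. There 13.8% of all genes were called as higher and 13.9% as lower. In the direct comparison of siRNA1 with siRNA2, 0 members were higher and 9 were lower, and 8 did not pass. Of all genes 15.1% were called as higher and 14.3% as lower in that contrast. These shares over all genes, here and below, were not matched to the members in count. Genes with few counts are called less readily, so the shares are only a rough comparison. The median log2 fold change of the members tested was -0.20 for siRNA1 against NC, 0.39 for siRNA2 against NC and -0.69 for siRNA1 against siRNA2, while that of all genes tested was 0.01, 0.00449 and 0.00774. RPTN, at 0 in every NC library, stays on the same side of the medians against NC when set to its lower bound. Both comparisons with NC share the same 3 NC libraries. The members also shifted together between libraries of 1 group. Each library was set against the other libraries of its group, over the 14 members averaging 50 or more. The median log2 deviation of these members ran from -0.16 (siRNA1 replicate 3) to 0.12 (siRNA2 replicate 1). That of all tested genes averaging 50 or more ran from -0.0072 to 0.0016. The member median of -0.20 with siRNA1 is near the size of such shifts. The SE of the log2 fold change differed widely among members, with 0.04 for S100A10 and 0.59 for S100A5 with siRNA1.

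**Figure D1:**
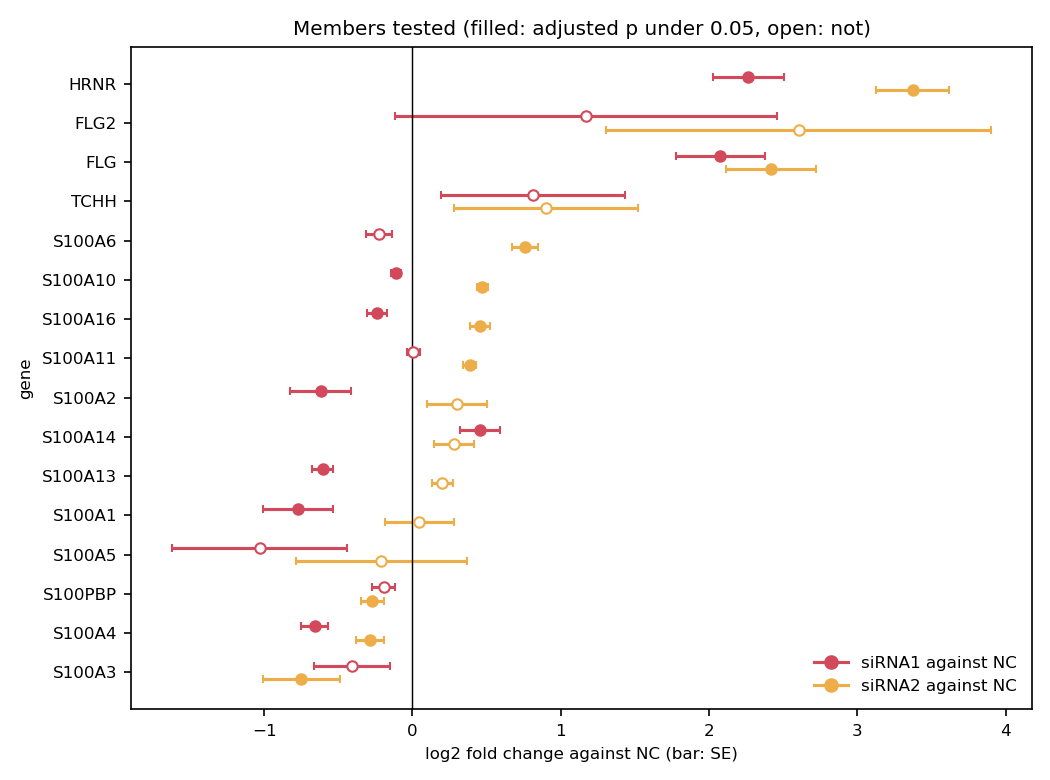
Log2 fold change against NC of 16 tested members (points, bars are the SE), for siRNA1 (red) and siRNA2 (orange), with filled points for an adjusted p under 0.05. HRNR and FLG lie beyond 2 with both siRNAs, the S100 genes lie between -1.03 and 0.76, and RPTN is not drawn since its NC libraries were all at 0.

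Among the members tested against NC, the changes of greatest size with a call were in the S100-fused type genes. HRNR codes for hornerin, a repeat-rich protein of the cornified layer, and lies at chr1:152212082-152224193. Its normalized count was 370.6, 434.0 and 481.2 with siRNA1, 736.5, 1033.5 and 1002.9 with siRNA2, and 65.5, 71.2 and 130.5 with NC. The 3 groups did not overlap, with NC lowest and siRNA2 highest. HRNR rose 4.80-fold with siRNA1 (log2 fold change 2.26, SE 0.24, adjusted p = 2.30e-05) and 10.4-fold with siRNA2 (3.37, SE 0.25, adjusted p = 4.69e-07). The difference between the siRNAs also passed the test, with siRNA1 below siRNA2 by a log2 difference of -1.11 (SE 0.22, adjusted p = 0.00180). These 3 calls held under every alternative and without each library in turn. In bulk RNA, a change in the number of cells that make a transcript and a change in the amount per cell cannot be told apart. In CPM per kilobase of exon, the level of HRNR was 0.807 ± 0.104 with siRNA1, 1.74 ± 0.308 with siRNA2 and 0.168 ± 0.0677 with NC (SD, n = 3 each), which remained far below that of the abundant S100 genes.

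FLG codes for profilaggrin, the precursor of the filaggrin that bundles keratin filaments, and lies at chr1:152302175-152325203. Its normalized count was 215.0, 183.4 and 227.1 with siRNA1, 299.7, 221.5 and 271.9 with siRNA2, and 68.5, 53.9 and 25.7 with NC. All 6 knockdown libraries lay above all 3 NC libraries, and those of the 2 siRNAs overlapped. FLG rose 4.22-fold with siRNA1 (log2 fold change 2.08, SE 0.30, adjusted p = 0.000281) and 5.35-fold with siRNA2 (2.42, SE 0.30, adjusted p = 5.34e-05). The log2 difference between siRNA1 and siRNA2 was -0.34 (SE 0.28, adjusted p = 0.426). The 2 calls against NC held under every alternative run.

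FLG-AS1, an antisense gene that runs through this locus, was read alongside, since the strand used in counting is not stated. It had normalized counts of 98.1, 83.9 and 81.0 with siRNA1, 166, 130 and 60.1 with siRNA2, and 41.7, 40.7 and 37.6 with NC. It rose with siRNA1 (log2 fold change 1.13, SE 0.35, adjusted p = 0.0352) and with siRNA2 (1.56, SE 0.35, adjusted p = 0.00441). Its exons cover 704 bases of FLG exon, 5.52% of the total, so reads there cannot be told apart. They cover 0 exon bases of HRNR, FLG2 and CRNN.

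The other S100-fused type genes had few reads. TCHH, the trichohyalin of the hair follicle's inner root sheath, ranged from 19.5 to 26.4 normalized counts with siRNA1, 13.8 to 40.4 with siRNA2 and 10.9 to 13.8 with NC. Every siRNA1 library lay above NC, yet neither comparison passed the test (log2 fold change 0.81, SE 0.62, adjusted p = 0.434 with siRNA1, and 0.90, SE 0.62, adjusted p = 0.337 with siRNA2). FLG2, the filaggrin paralog, ranged from 5.85 to 23.0 with siRNA1, 7.13 to 63.1 with siRNA2 and 0 to 15.9 with NC, where 1 library held all the reads. Its adjusted p was 0.616 with siRNA1 and 0.168 with siRNA2, and without NC replicate 1 it was 0.0368 and 0.00962, so that library decides the call. With that library left out, NC was at 0 and FLG2 passed the filter on low counts only through knockdown libraries. The adjusted p-values without it are therefore no independent support for a rise. RPTN, repetin, a protein of the upper epidermis and hair follicle, had counts of 0, 10 and 0 with siRNA1, 17, 10 and 24 with siRNA2 and 0, 0 and 0 with NC.

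RPTN was called as higher with siRNA2 (adjusted p = 0.0325) and not with siRNA1 (adjusted p = 0.181). Against a floor of 3 counts per library, RPTN was at least 5.67-fold higher with siRNA2 than with NC. It passed the filter on low counts mainly through the siRNA2 libraries, so its call is no independent support for the counts above. The adjusted p with siRNA2 was 0.0687 with no filter, 0.0527 with a block for the replicate number and 0.0615 to 0.0965 without any 1 of siRNA2 replicates 1, 2 and 3 or NC replicates 1, 2 and 3. CRNN, cornulin of squamous epithelium, had 4 counts in 1 NC library and 0 in the other 8 libraries.

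**Figure D2:**
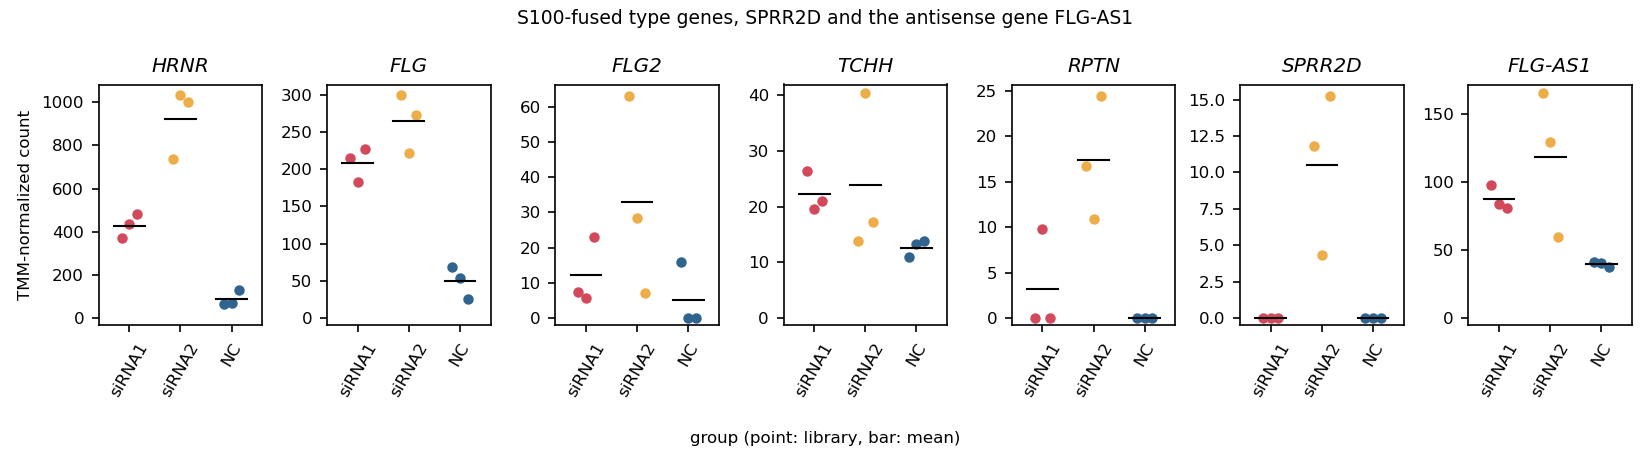
TMM-normalized count in each library (points, bars are group means) of 5 S100-fused type genes, SPRR2D and the antisense gene FLG-AS1, by group, each panel with its own linear axis. HRNR reaches 1033.5 with siRNA2 and stays at or under 130.5 with NC, while FLG2, TCHH, RPTN and SPRR2D stay at or under 63.1 in every library.

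Except for KRT10, the keratinocyte markers were near 0. Of 6 such markers with a row, 5 (KRT5, KRT14, DSG3, TP63 and KRTDAP) were under 1 CPM in all 9 libraries. The sum of the 6, nearly all of it KRT10, was 28.99 to 31.4 CPM with siRNA1, 22.0 to 26.7 with siRNA2 and 20.2 to 22.8 with NC. In the edgeR test KRT10 was higher with siRNA1 (log2 fold change 0.41, adjusted p = 0.00627). With siRNA2 it was not called (0.13, adjusted p = 0.361). Of the 5 fibroblast markers with a row, 4 (COL1A2, COL3A1, DCN and PDGFRB) were under 1 CPM in every library, while the sum, nearly all COL1A1, was 58.6 to 65.5 CPM with siRNA1, 26.8 to 29.6 with siRNA2 and 34.1 to 41.8 with NC. The sums of leukocyte and endothelial markers were at most 11.7 and 1.75 CPM in any library. Most of the leukocyte sum was CD68, at 4.09 to 10.8 CPM, and ITGAM reached 1.11 CPM. VWF of endothelium reached 1.23 CPM. PTPRC, LYZ and MS4A1 of leukocytes and PECAM1 and KDR of endothelium stayed under 1 CPM.

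The cornified envelope precursors were at the limit of detection. SPRR2D, a small proline-rich protein cross-linked into the envelope, had counts of 12, 4 and 15 with siRNA2 and 0 in all libraries with siRNA1 and with NC. Against a floor of 3 counts per library it was at least 3.44-fold higher with siRNA2 than with NC, without a test since it did not pass the filter. LCE1B had 12 counts in 1 siRNA2 library and 2 in each of 2 NC libraries. LCE1C totalled 2 counts with siRNA1, 7 with siRNA2 and 0 with NC. LCE1E totalled 3 with siRNA1, 0 with siRNA2 and 6 with NC, and LCE1F had 4 counts in 1 siRNA2 library only. At these totals, with 3 counts as the limit that a count of 0 allows in a library, no difference among the LCE genes was detectable. Floors of this kind cover counting error only.

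Turning to the S100 proteins, 11 of the 15 could be tested. With siRNA1, 1 was higher and 6 were lower, with siRNA2 4 were higher and 2 lower, and between the siRNAs 8 were lower with siRNA1 than with siRNA2 and 0 higher. Over all genes tested the shares higher and lower were 10.8% and 10.5% with siRNA1 and 13.8% and 13.9% with siRNA2. Between the siRNAs they were 15.1% and 14.3%. In CPM per kilobase of exon, the order of levels with NC was S100A6 at 353 ± 13.3 (SD, n = 3), S100A11 at 156 ± 8.07, S100A10 at 108 ± 3.25, S100A16 at 101 ± 1.70 and S100A4 at 82.7 ± 2.36. S100A10 and S100A16 differed by more than either SD, though the nearest of their libraries were 104 and 103. S100A14 at 18.1 ± 2.20 and S100A13 at 17.4 ± 1.41 overlapped, and S100A3 at 3.27 ± 0.502 and S100A2 at 2.91 ± 0.495 did so too. S100A5 at 1.70 ± 0.424 and S100A1 at 1.24 ± 0.132 overlapped as well. The same order began with S100A6, S100A11, S100A10, S100A16 and S100A4 in all 3 groups. Length here is every exon base annotated for a gene, 680 for S100A11, 1543 for S100A10 and 1701 for S100A16. The order therefore depends on the annotation, which the SDs do not cover. By mean normalized count with NC, S100A11 at 5852 lay below S100A10 at 9166 and S100A16 at 9502.

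**Figure D3:**
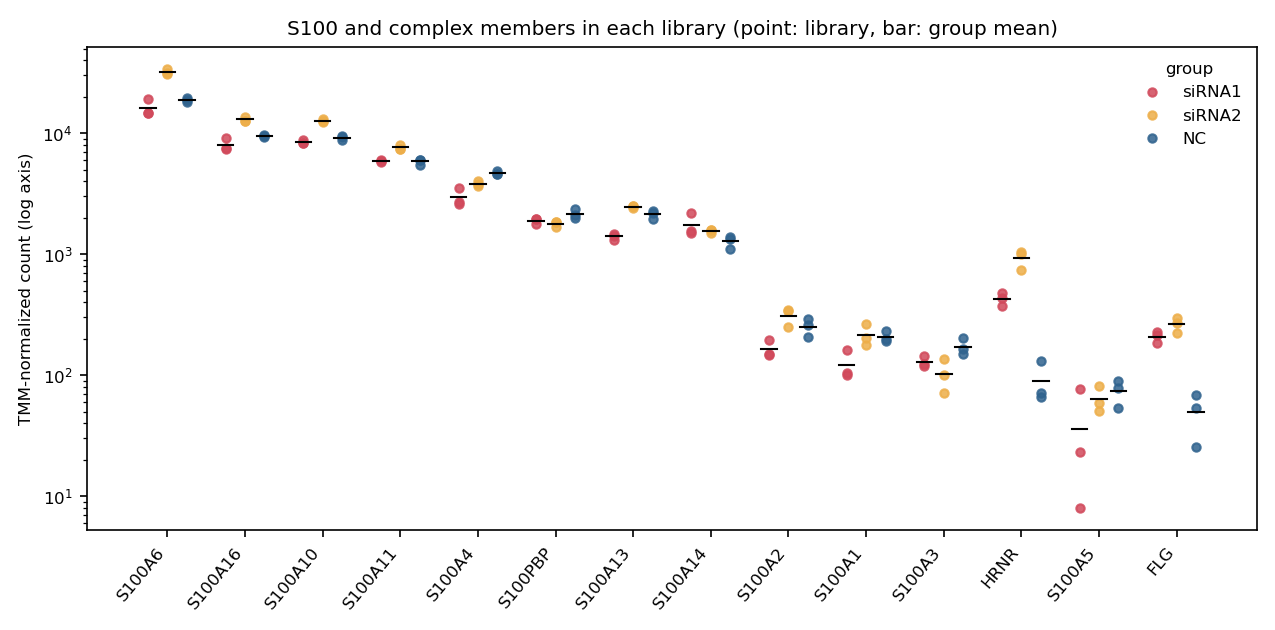
TMM-normalized count (log axis) of the 14 members with a mean of at least 50, in each library (points) with the group mean (bars), for siRNA1 (red), siRNA2 (orange) and NC (blue). S100A6, S100A16, S100A10 and S100A11 are highest with siRNA2, and HRNR and FLG are lowest with NC.

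The 4 S100 genes with the highest levels per length rose with siRNA2. S100A6, calcyclin, binds annexins and the calcyclin-binding protein CACYBP. In normalized counts it stood at 19304, 14577 and 14654 with siRNA1, 33975, 30737 and 31473 with siRNA2, and 19662, 18924 and 18236 with NC. Every siRNA2 library lay far above all others, while siRNA1 replicate 1 lay among the NC libraries and the other 2 below them. S100A6 rose 1.69-fold with siRNA2 (log2 fold change 0.76, SE 0.09, adjusted p = 2.31e-05). With siRNA1 its log2 fold change was -0.23 (SE 0.09, adjusted p = 0.0841), and without siRNA1 replicate 1 it was -0.38 (adjusted p = 5.46e-05). With a block for the replicate number the siRNA1 value also passed the test (adjusted p = 0.0127). The direct log2 difference of siRNA1 from siRNA2 was -0.99 (SE 0.09, adjusted p = 1.95e-06). BX470102.1, an antisense gene that covers 23 exon bases of S100A6 (2.37%), rose with siRNA2 as well (0.92, SE 0.28, adjusted p = 0.0250).

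S100A10, also called p11, forms a complex with annexin A2 at the plasma membrane and does not itself bind calcium. Its normalized count was 8734, 8369 and 8360 with siRNA1, 12656, 12392 and 13059 with siRNA2, and 9401, 9237 and 8861 with NC. The 3 groups did not overlap, with siRNA1 lowest. S100A10 rose with siRNA2 (log2 fold change 0.47, SE 0.04, adjusted p = 8.11e-07) and was called as lower with siRNA1 by a small amount (-0.11, SE 0.04, adjusted p = 0.0477). The call with siRNA1 was lost without siRNA1 replicate 2 or 3 or NC replicate 1 or 2 (adjusted p 0.0965 to 0.125), with upper quartile normalization (0.116), with no filter (0.0683) and with only the 2 groups (0.0553). Between siRNA1 and siRNA2 the log2 difference was -0.58 (SE 0.04, adjusted p = 8.85e-08).

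S100A16 had 9197, 7386 and 7553 normalized counts with siRNA1, 13699, 12701 and 12642 with siRNA2, and 9331, 9647 and 9529 with NC. Here too the groups did not overlap, though siRNA1 replicate 1 lay close to NC. It rose with siRNA2 (log2 fold change 0.45, SE 0.07, adjusted p = 0.000228) and fell with siRNA1 (-0.24, SE 0.07, adjusted p = 0.0235). The fall was no longer called without siRNA1 replicate 2 or 3 or NC replicate 2 or 3 (adjusted p 0.0547 to 0.0849) or with no filter (0.0569), and it was largest without siRNA1 replicate 1 (-0.35, adjusted p = 6.01e-05). The direct log2 difference was -0.69 (SE 0.07, adjusted p = 5.32e-06).

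S100A11, calgizzarin, a partner of annexin A1 that is itself cross-linked into the cornified envelope of keratinocytes, had 5764, 5952 and 5905 normalized counts with siRNA1, 7471, 7456 and 8015 with siRNA2, and 6046, 5504 and 6008 with NC. The siRNA1 and NC libraries overlapped, and the siRNA2 libraries lay above both. S100A11 rose with siRNA2 (log2 fold change 0.39, SE 0.05, adjusted p = 2.99e-05), and its log2 fold change with siRNA1 was 0.01 (SE 0.05, adjusted p = 0.960). The direct log2 difference was -0.38 (SE 0.05, adjusted p = 2.86e-05).

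S100A4 and S100A13 had their lowest values with siRNA1. S100A4, metastasin, binds non-muscle myosin IIA and is known for its link to metastasis. Libraries held 3551, 2607 and 2724 with siRNA1, 4049, 3634 and 3827 with siRNA2, and 4833, 4589 and 4616 normalized counts with NC. All knockdown libraries lay below all NC libraries. S100A4 fell with siRNA1 (log2 fold change -0.66, SE 0.09, adjusted p = 0.000202) and with siRNA2 (-0.29, SE 0.09, adjusted p = 0.0329), and siRNA1 lay below siRNA2 (-0.37, SE 0.09, adjusted p = 0.00751). The call with siRNA2 was lost with no filter (adjusted p = 0.0804) and without siRNA2 replicate 2 or 3 or NC replicate 1, 2 or 3 (0.0649 to 0.116).

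S100A13 takes part in the release of FGF1 by a route outside the classical secretory pathway. It had 1476, 1424 and 1308 normalized counts with siRNA1, 2485, 2481 and 2402 with siRNA2, and 2275, 1942 and 2187 with NC, with no overlap between groups. S100A13 fell with siRNA1 (log2 fold change -0.61, SE 0.07, adjusted p = 6.50e-05), and the direct log2 difference of siRNA1 from siRNA2 was -0.81 (SE 0.07, adjusted p = 2.59e-06). With siRNA2 against NC its log2 fold change was 0.20 (SE 0.07, adjusted p = 0.0546), which lies close to the threshold. That value passed with DESeq2 (0.0347), limma-voom (0.0328), upper quartile normalization (0.0360) and only the 2 groups (0.0443), and without siRNA1 replicate 3 (0.0477) or NC replicate 1 (0.0412). Exons of AL162258.1 on the same strand cover 24.2% of its exon bases, and S100A1 on the opposite strand covers 10.6%. AL162258.1 had counts of 300, 36 and 118 with siRNA1, 273, 125 and 63 with siRNA2, and 26, 117 and 169 with NC.

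S100A14, an epithelial S100 protein with a degenerate EF-hand, was the 1 S100 member called as higher with siRNA1. Its normalized count was 2211, 1500 and 1542 with siRNA1, 1588, 1489 and 1580 with siRNA2, and 1102, 1392 and 1343 with NC. Every knockdown library lay above every NC library, and siRNA1 replicate 1 was well above the rest. On the log2 scale its change came to 0.45 with siRNA1 (SE 0.14, adjusted p = 0.0301) and 0.28 with siRNA2 (SE 0.14, adjusted p = 0.157). Without siRNA1 replicate 1 the value with siRNA1 was 0.25 (adjusted p = 0.118), a change of over 1.5 times, and the value with siRNA2 passed the test (0.27, adjusted p = 0.0408). The siRNA1 call was also lost without NC replicate 1 (adjusted p = 0.142) or 3 (0.0619), with no filter (0.0772), with only the 2 groups (0.0519) and with the replicate block (0.0507).

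Among the S100 genes with lower counts, S100A2 and S100A1 were lowest with siRNA1. S100A2, a nuclear S100 protein of epithelia that binds p53, had 195, 149 and 148 normalized counts with siRNA1, 344, 339 and 248 with siRNA2, and 206, 290 and 261 with NC. The siRNA1 libraries lay below all others, and those of siRNA2 overlapped with NC. On the log2 scale its change came to -0.62 with siRNA1 (SE 0.21, adjusted p = 0.0495), 0.30 with siRNA2 (SE 0.20, adjusted p = 0.328) and -0.92 between siRNA1 and siRNA2 (SE 0.21, adjusted p = 0.00414). The call with siRNA1 lay at the threshold and was lost without siRNA1 replicate 2 or 3, siRNA2 replicate 1 or 2 or NC replicate 2 or 3 (adjusted p 0.0597 to 0.167). It was also lost with limma-voom (0.0638), upper quartile normalization (0.0568), no filter (0.0958), only the 2 groups (0.0606) and the replicate block (0.0638).

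S100A1, known from heart and skeletal muscle, had 100, 162 and 104 normalized counts with siRNA1, 263, 178 and 204 with siRNA2, and 233, 199 and 192 with NC. Again the siRNA1 libraries lay below all others. On the log2 scale its change came to -0.77 with siRNA1 (SE 0.24, adjusted p = 0.0355), 0.05 with siRNA2 (SE 0.23, adjusted p = 0.921) and -0.82 between siRNA1 and siRNA2 (SE 0.24, adjusted p = 0.0197). The call against NC was lost without siRNA1 replicate 1 or 3 or NC replicate 1, 2 or 3 (adjusted p 0.0575 to 0.121), with no filter (0.0774) and with the replicate block (0.0505). The call between the siRNAs was lost without siRNA1 replicate 1 or 3 or siRNA2 replicate 1 (0.0758 to 0.0881). S100A13 and the antisense gene AL162258.2 lie on the opposite strand and cover 7.76% and 10.6% of its exon bases. AL162258.1, also on the opposite strand, covers 1.12%.

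S100A3, a protein of the hair cuticle, had 124, 145 and 119 normalized counts with siRNA1, 135, 70.9 and 101 with siRNA2, and 202, 165 and 150 with NC. All knockdown libraries lay below all NC libraries, and those of siRNA1 and siRNA2 overlapped. On the log2 scale its change came to -0.41 with siRNA1 (SE 0.26, adjusted p = 0.316) and -0.75 with siRNA2 (SE 0.26, adjusted p = 0.0463). The call with siRNA2 was lost with no filter (0.0968), with only the 2 groups (0.0587) and without any 1 library other than siRNA2 replicate 1 (0.0561 to 0.160).

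S100A5, known from olfactory sensory neurons, had 76.4, 23.4 and 8.0 normalized counts with siRNA1, 81.8, 50.2 and 59.1 with siRNA2, and 53.6, 89.5 and 78.1 with NC. Its siRNA1 libraries were widely spread, with replicate 1 among the NC values and the other 2 below them. On the log2 scale its change came to -1.03 with siRNA1 (SE 0.59, adjusted p = 0.267) and -0.21 with siRNA2 (SE 0.58, adjusted p = 0.847). Without siRNA1 replicate 1 the value with siRNA1 was -2.22 (adjusted p = 0.00870), and that between siRNA1 and siRNA2 was -2.01 (adjusted p = 0.0105), so this library decides both.

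S100PBP, coding for the nuclear protein that binds S100P, had 1946, 1941 and 1768 normalized counts with siRNA1, 1840, 1681 and 1840 with siRNA2, and 2380, 2097 and 1997 with NC. All knockdown libraries lay below all NC libraries. It fell with siRNA2 (log2 fold change -0.27, SE 0.08, adjusted p = 0.0190), and its value with siRNA1 was -0.20 (SE 0.08, adjusted p = 0.10). The call was lost without siRNA2 replicate 2 (adjusted p = 0.0784) or NC replicate 1 (0.0925). YARS on the opposite strand shares 396 exon bases with it (4.31%). S100P itself had 15 counts in 1 siRNA1 library and 4 in 1 NC library.

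The remaining S100 genes were read in single libraries. S100B, a marker of glia, had 4 counts in 1 NC library, S100Z had 7 counts in 1 siRNA2 library, and S100G, the vitamin D-dependent calbindin of the intestine, had 6 counts in 1 siRNA2 library. None of the 10 members that were not tested reached more than 15 counts in a library, and their totals over the 9 libraries were 4 to 31.

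Along the complex, neighbours did not always share a call. TCHH, RPTN, HRNR, FLG and FLG2 lie next to each other, and of these HRNR and FLG were called as higher with both siRNAs. TCHH and FLG2 had few reads with NC and RPTN had 0 in every NC library. The lack of a call as lower therefore tells little about these genes. CRNN, the next member, was not tested. S100A10 and S100A11 at one end and S100A6 and S100A16 at the other rose with siRNA2. Between these last 2 lie S100A5, S100A4, S100A3 and S100A2, none of which was called as higher with siRNA2. S100A4 and S100A3 overlap in the annotation as genes but share 0 exon bases.

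**Figure D4:**
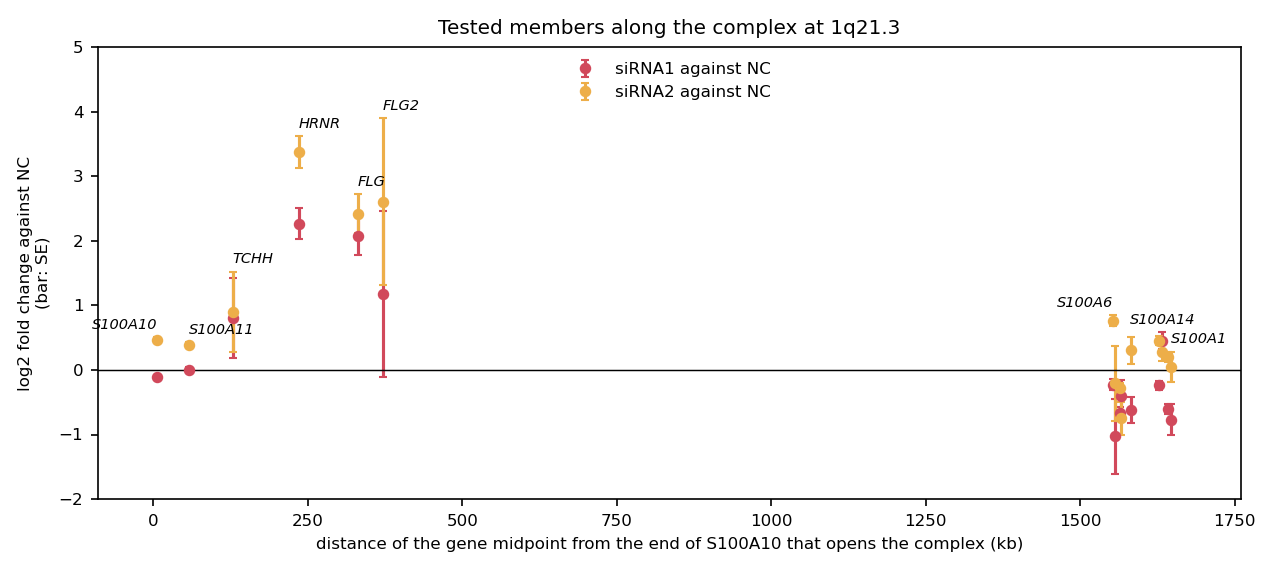
Log2 fold change against NC (bars are the SE) of the tested members of the complex, with siRNA1 (red) and siRNA2 (orange), by the distance of each gene's midpoint from the outer end of S100A10 in kilobases, RPTN not drawn. HRNR and FLG stand above 2 with both siRNAs, and the S100 genes at the right end lie between -1.03 and 0.76.

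Genes that work with the members or regulate them were read from 4 lists written from general knowledge. The lists were chosen with earlier results of these data known, so their counts and medians are a description only. For comparison with each list, 10.8% of all genes tested were called as higher and 10.5% as lower with siRNA1. With siRNA2 these shares were 13.8% and 13.9%. The median log2 fold changes of all genes tested were 0.01 with siRNA1 and 0.00449 with siRNA2. Counts near these shares are no result about a list. Of 35 other genes in and beside the complex at 1q21.3, 25 were tested, of which 3 were higher and 5 lower with siRNA1 and 4 higher and 4 lower with siRNA2, with median log2 fold changes of -0.09 and -0.04. TUFT1 (tuftelin) rose with siRNA1 (1.01, adjusted p = 5.36e-06), where siRNA2 gave 0.22 (adjusted p = 0.0889). CGN, cingulin of tight junctions, rose with siRNA1 (0.56, adjusted p = 4.38e-05) and fell with siRNA2 (-0.56, adjusted p = 2.95e-05). Without siRNA1 replicate 1 the count of lower genes with siRNA1 in this list was 9. Of the 25, INTS3 and TPM3 were called as higher with siRNA2, at 0.31 and 0.13 on the log2 scale, and had values of -0.04 and 0.08 with siRNA1. CHTOP and TDRKH were called as lower with siRNA1, at -0.22 and -0.61, and had values of 0.0087 and -0.26 with siRNA2.

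Of 18 partners and receptors of S100 proteins, 17 were tested, of which 2 were higher and 4 lower with siRNA1 and 2 higher and 5 lower with siRNA2, and their median log2 fold changes were 0.04 and -0.05. ANXA2, the annexin partner of S100A10, fell with siRNA1 (-0.71, adjusted p = 3.26e-07) and with siRNA2 (-0.59, adjusted p = 8.84e-07), while S100A10 rose with siRNA2. ANXA2 has near-identical pseudogene copies, of which ANXA2P1 and ANXA2P2 have rows of their own, and how reads shared among them were assigned is not stated, so its values are uncertain to that extent. ANXA1, the partner of S100A11, rose with siRNA1 (0.26, adjusted p = 0.000166) and with siRNA2 (0.81, adjusted p = 6.16e-09). AHNAK, a giant scaffold protein that binds the complex of S100A10 and annexin A2, fell with siRNA1 (-0.40, adjusted p = 5.19e-06) but was higher with siRNA2 (0.53, adjusted p = 2.14e-07). MYH9, the myosin heavy chain bound by S100A4, fell with siRNA1 (-0.28, adjusted p = 2.42e-05) and had a value of -0.05 with siRNA2 (adjusted p = 0.265). The S100A6 partners SUGT1 and CACYBP fell with siRNA2 by 0.29 each on the log2 scale (adjusted p = 0.000112 and 0.000215), and had values of 0.06 and -0.11 with siRNA1.

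Of 38 cornified envelope and cornification genes outside the complex, 33 had a row and 24 were tested. ANXA1, given above among the partners, is also in this list and counts as higher with both siRNAs in each list. With siRNA1, 7 were higher and 1 lower, with siRNA2 5 were higher and 3 lower, and the median log2 fold changes were 0.22 and 0.01. DSP, desmoplakin, rose with siRNA1 (0.40, adjusted p = 2.68e-06) and with siRNA2 (0.26, adjusted p = 6.08e-05), as did DMKN, dermokine (0.19, adjusted p = 0.0262, and 0.34, adjusted p = 0.000331). PPL, periplakin, fell with siRNA2 (-0.56, adjusted p = 5.04e-06) and had a value of -0.04 with siRNA1. Among the skin kallikreins, KLK6 rose with siRNA1 (0.55, adjusted p = 0.00123) and had a value of -0.24 with siRNA2 (adjusted p = 0.0854), with a direct log2 difference of 0.79 (adjusted p = 3.92e-05). KLK7 fell with siRNA1 (-0.46, adjusted p = 0.00248) but was higher with siRNA2 (0.36, adjusted p = 0.00749).

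Of 32 regulators of epidermal differentiation, 30 were tested, of which 5 were higher and 5 lower with siRNA1 and 6 higher and 9 lower with siRNA2, with median log2 fold changes of -0.02 and -0.06. GRHL3, a grainyhead factor of late epidermal differentiation, averaged 118 ± 23.5 normalized counts with siRNA1, 195 ± 37.1 with siRNA2 and 47.9 ± 8.37 with NC (SD, n = 3 each). It rose with siRNA1 (1.30, SE 0.26, adjusted p = 0.00294) and with siRNA2 (2.02, SE 0.26, adjusted p = 6.70e-05). ELF3, an epithelial ETS factor, fell with siRNA1 (-0.32, adjusted p = 0.00226) and with siRNA2 (-1.16, adjusted p = 3.41e-08). Of the AP-1 subunits, FOSL2 fell with siRNA1 (-0.22, adjusted p = 0.00451) and with siRNA2 (-0.44, adjusted p = 1.17e-05), while FOSL1 fell with siRNA1 (-0.27, adjusted p = 0.000205) but was higher with siRNA2 (0.32, adjusted p = 3.14e-05). TFAP2A fell with siRNA2 (-0.75, adjusted p = 1.34e-05) and had a value of -0.08 with siRNA1 (adjusted p = 0.576). PPARD fell with siRNA1 (-0.44, adjusted p = 3.29e-05) and had a value of -0.06 with siRNA2 (adjusted p = 0.386).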

How the data were processed

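RNA sequencing was done by a service company, and the authors deposited raw counts per gene as whole numbers, not normalized, for 35817 Ensembl genes in 9 libraries, all of which were used. The build given in the submitters' processing notes is hg19. Neither aligner, counting program, annotation nor read strand is stated in the labels or the methods, nor is whether single reads or pairs were tallied. Groups were taken from the library labels. Positions, exon lengths and exon overlaps came from GENCODE v29 (GRCh38), joined by Ensembl gene ID (34766 of the 35817 IDs found), and promoter windows from RefSeq (GRCh38.p14), so no position was carried between builds.

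A filter on low counts (filterByExpr of edgeR with a minimum of 10 counts and of 15 in total) kept 21130 genes, and libraries were scaled by TMM. One model with 3 groups, 9 libraries and 6 residual degrees of freedom was fitted in edgeR 4.0.16 (R 4.3.3). Each contrast was tested by the quasi-likelihood F test and called at a Benjamini-Hochberg adjusted p under 0.05, and each SE was taken as the size of the log2 change over the root of its F value. With totals of 51411860 to 57815092 counts, 3 counts in a library were taken as the limit that a count of 0 allows, which covers counting error only.

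The members and the gene lists were chosen with earlier results of these data known. Members with a mean of at least 50 normalized counts are named with every library, other tested members by their range and members below the filter by their counts. Of each list at most 6 genes are named, those with the smallest adjusted p against NC and a mean of at least 50. Genes whose exons overlap a member's are named beside it. Alternatives were DESeq2 1.42.0, limma-voom (limma 3.58.1), upper quartile or median-of-ratios scaling, no filter on counts, a strict filter (10 counts or more throughout some group), a fit to the 2 groups of a contrast alone, the replicate number as a block, leaving out each library, and a call by unadjusted p under 0.05 with an absolute log2 fold change over 1.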

Additional observations from a re-analysis of the deposited data

Results flagged for a closer look

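S100A10 and S100A16 were flagged by a rule: calls in opposite directions with the 2 siRNAs and a direct difference that also passed the test. Passing was thus a condition of the flag, so the adjusted p-values below are no separate support for it. The log2 fold change of S100A10 was -0.11 with siRNA1 and 0.47 with siRNA2, a difference of -0.58 (SE 0.04, edgeR adjusted p = 8.85e-08). That of S100A16 was -0.24 with siRNA1 and 0.45 with siRNA2, a difference of -0.69 (SE 0.07, edgeR adjusted p = 5.32e-06). Both differences passed the test in every other fit and without each library in turn, while the calls of both genes with siRNA1 were lost in some of them.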

How the results depend on the processing

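Over 857 values of the 17 tested members in the other fits and without 1 library, 779 kept their call or lack of a call. Another 65 lost the call and 13 gained it. Of the values with a call in either fit, 0 reversed direction. Some values without a call changed sign, such as S100A1 with siRNA2, at -0.124 to 0.163 without 1 library. HRNR and FLG kept their calls against NC in all of these fits, as did LINC00857. Of the members, 6 were lower with siRNA1, against 2 with no filter and 2 to 7 without 1 library, and 3 were lower with siRNA2, against 1 with no filter and 0 to 3 without 1 library. With no filter all 35817 genes enter the adjustment, and for single libraries left out the cause was not tested.

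By unadjusted p under 0.05 with a log2 change over 1, members were 0 lower with siRNA1 (6 by the adjusted threshold), 3 higher with siRNA2 (7), 0 lower with siRNA2 (3) and 1 lower with siRNA1 than with siRNA2 (9), since most changes of S100 genes are smaller than that. By the same rule, partners of S100 proteins gave 0 higher and 0 lower with either siRNA (2 and 4 with siRNA1, 2 and 5 with siRNA2). Cornification genes gave 1 higher and 0 lower with siRNA1 (7 and 1) and 1 higher and 0 lower with siRNA2 (5 and 3). Regulators gave 2 higher and 0 lower with siRNA1 (5 and 5) and 3 higher and 2 lower with siRNA2 (6 and 9). Other genes at 1q21.3 gave 1 higher and 0 lower with siRNA1 (3 and 5) and 0 higher and 1 lower with siRNA2 (4 and 4). Without 1 library, cornification genes lower with siRNA2 numbered 3 to 5, regulators higher with siRNA1 3 to 5 and other 1q21.3 genes lower with siRNA1 4 to 9.

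Replicate numbers did not pair the libraries, with correlations of same-numbered deviations of -0.102 to 0.0780. With the replicate block, the adjusted p of S100A2, S100A14 and S100A1 with siRNA1 was 0.0638, 0.0507 and 0.0505, that of RPTN with siRNA2 0.0527 and that of S100A6 with siRNA1 0.0127, and no other member's call changed. Normalization alternatives moved the median of all genes by at most 0.0241 on the log2 scale.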
